A study of Drosophila melanogaster with 8 samples.

Results

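The larval heart was set against the larval aorta on 4 of the 8 two-colour oligonucleotide arrays of the series, each array carrying 1 RNA pool of each region. These 4 arrays were chosen by the titles that name heart and aorta together. The other 4 arrays compared the whole dorsal vessel with whole larvae and served here only in an alternative fit. Both regions came from wild-type larvae in the third instar of Drosophila melanogaster (strain yw; Canton S) reared at 25 °C, with no transgene and no treatment in either group. Each pool held 10 hearts or 10 aortae, dissected by hand and cut apart at the cardiovascular valve, and its RNA was amplified over a pair of rounds before labelling. The pools of a replicate were hybridised together, so each array gave its own ratio of heart over aorta. Heart RNA was in Cy5 in replicates 1 and 2 and in Cy3 in replicates 3 and 4.

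The dorsal vessel is the fly's circulatory organ, an open tube beneath the dorsal midline. Its posterior part, the heart, has valved openings called ostia and pumps hemolymph forward, while the narrower anterior aorta carries it toward the head. The Hox gene abd-A is known to set heart identity, and ostia, alary muscles, pericardial cells, resting blood cells, the lymph gland and the ring gland all lie along different stretches of the tube. Hand-dissected pools can therefore hold neighbouring cells, and in such bulk RNA fewer cells of a type and less RNA per cell cannot be told apart.

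The arrays were dim. Signal is given in relative fluorescence units (RFU), with channel medians of 1.42 to 2.43 RFU for gene spots and 0.944 to 2.05 RFU for their local background. Between 42.6 and 56.6% of gene spots exceeded detection. That was set at the 95th percentile of the signal of 260 negative-control spots, 52 empty spots and 532 spots whose oligonucleotide was listed with no gene. Of 13301 genes on the array, 7126 were above detection on at least 2 of the 4 arrays in heart or aorta and were tested. One block of 656 spots on replicate 3 did not follow the other arrays (r = -0.026 with their median log2 intensity). Shifted by 1 row and 1 column it did (r = 0.976), and its values were set to missing. Together with spots marked bad on any array, this left 249 tested genes with 3 arrays.

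The replicates fell into unlike pairs. Across genes, the log2 ratios of replicates 1 and 3 correlated at -0.51 (Spearman -0.23), those of replicates 2 and 4 at 0.16 (Spearman 0.11), and arrays of the same dye orientation at 0.45 (replicates 1 and 2) and 0.46 (replicates 3 and 4). All log2 ratios given here are heart over aorta by the dye labels, so a positive value is higher in heart. The negative correlation belongs to replicates of opposite dye orientation, and abd-A and Ms were higher in heart on both. In 1431 genes (20.8% of those with 4 values) the sign followed the dye orientation. Each pair, 1 with 3 and 2 with 4, holds both orientations. The pair means of 6877 genes correlated at 0.69 (Spearman 0.61), as a description across genes that share arrays within a pair, and had the same sign in 4865 of them (70.7%).

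The regional label could be checked with abd-A, which the heart is known to express and the aorta to lack for most of its length. Heart signals of abd-A were 52.6, 67.7, 82.4 and 83.6 RFU in replicates 1 to 4, against 16.1, 19.7, 22.1 and 22.9 RFU in aorta. Its log2 ratios were 1.19, 1.49, 1.59 and 1.37, all on the heart side with no overlap between the regions. Cardiac transcription factors were found in both regions: tin, Hand, pnr, H15, mid and Mef2 were above detection on all 4 arrays in heart and in aorta. So was how, an RNA-binding factor kept in the same list.

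A set of 7 genes differed between heart and aorta in limma, a linear model with 1 coefficient for the region and 1 for the dye orientation, at an adjusted p (Benjamini-Hochberg over all tested genes) below 0.05. Of these, 5 were higher in heart (0.0702% of tested genes) and 2 in aorta (0.0281%), and all 7 kept 1 sign on all 4 arrays. With the dye fitted, each SE and p reflects spread between arrays of the same dye orientation and not the gap between orientations. The heart side held a cardioinhibitory peptide, a carbonic anhydrase, a gene known only by number, a regulator of Arf GTPases and a prophenoloxidase. The aorta side held a synaptic adhesion protein and another gene known only by number. No gene passed when any 1 of the 4 replicates was left out, which leaves 1 residual degree of freedom.

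Ms encodes myosuppressin, a neuropeptide that slows the heartbeat. Heart signals were 71.8, 166, 169.9 and 133 RFU and aorta signals 1.36, 2.36, 2.31 and 2.20 RFU. These signals are as scanned, whereas ratios and folds were taken after background correction with an added offset, which understates differences where 1 region is dim. The log2 ratios were 4.1, 4.86, 5.03 and 4.66, and the fitted difference was 25.3-fold (4.66 ± 0.17, SE, n = 4, limma adjusted p = 0.0369). Ms was thus near background in aorta on every array, with the lowest heart signal far above the highest aorta signal.

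CAH7, a carbonic anhydrase that interconverts carbon dioxide and bicarbonate, had log2 ratios of 2.54, 2.95, 2.87 and 2.58 and was 6.66-fold higher in heart (2.74 ± 0.11, SE, n = 4, limma adjusted p = 0.0369). Heart signals of 33.0 to 112.4 RFU stood against 2.56 to 12.5 RFU in aorta, so the regions did not overlap. Of the other 4 carbonic anhydrases above detection none was called, and CAH8, CAH3 and CAH13 had fitted log2 ratios of 0.13, -0.05 and 0.21, with limma adjusted p of 0.459, 0.893 and 0.952.

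CG15537, for which the array's annotation lists binding of corticotropin-releasing hormone, measured 14.4, 27.6, 32.6 and 32.3 RFU in heart. In aorta it read 1.14 to 1.52 RFU and was above detection on only 2 of the 4 arrays. The log2 ratios were 2.16, 2.67, 3.0 and 3.0, or 6.53-fold with the offset and an aorta signal near background (2.71 ± 0.12, SE, n = 4, limma adjusted p = 0.0369).

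CenG1A encodes a GTPase-activating protein for Arf GTPases, which direct membrane traffic. It was 4.04-fold higher in heart, with log2 ratios of 2.69 and 2.51 where heart was in Cy5 and 1.55 and 1.31 where heart was in Cy3 (2.02 ± 0.09, SE, n = 4, limma adjusted p = 0.0369). The size of the difference thus moved with the dye while its side did not. PPO1, a prophenoloxidase made by crystal cells for melanisation, moved the opposite way, at 1.14 and 1.15 with heart in Cy5 and 2.47 and 2.40 with heart in Cy3, or 3.46-fold (1.79 ± 0.07, SE, n = 4, limma adjusted p = 0.0369).

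On the aorta side, Lapsyn gave the closest replicates of the 7 genes. This leucine-rich repeat membrane protein is known for its part in building larval synapses. Its log2 ratios were -2.02, -2.0, -2.10 and -1.94, a 4.03-fold difference (-2.01 ± 0.07, SE, n = 4, limma adjusted p = 0.0369), with aorta signals of 35.8 to 52.2 RFU against 10.3 to 16.9 RFU in heart. CG5612, which carries no function in the array's annotation, was 4.02-fold higher in aorta, at -1.53, -1.57, -2.38 and -2.56 (-2.01 ± 0.07, SE, n = 4, limma adjusted p = 0.0369). Heart stayed between 14.9 and 22.8 RFU for CG5612 while aorta lay between 45.0 and 89.9 RFU.

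The wider threshold of an adjusted p below 0.1 took in 230 genes higher in heart (3.23%) and 221 higher in aorta (3.1%), of which 379 kept 1 sign on all 4 arrays. That split depended on the scaling: median centring in place of loess gave 279 in heart and 34 in aorta and moved the median of all genes to 0.12, and an offset of 50 RFU gave 16 and 48. At 0.05 the offset of 50 RFU gave 2 and 8, with 1 of the 7 genes among them, and median centring gave 0 and 0. The authors' deposited table also gave 0 and 0, and 4 of the 7 passed without background correction or without a dye term. Of the 451 genes, 450 kept their sign under median centring and 451 under the larger offset. Across all tested genes, 818 (11.5%) were positive and 774 (10.9%) negative on all 4 arrays. A fit of all 8 arrays with a shared dye term, in which the other experiment also sets the spread, placed 100 genes in heart (1.4%) and 35 in aorta (0.491%), and 6 of the 7 genes above passed it too. Members are called "past 0.1" below where the limma adjusted p lay under that wider threshold, and of these only the 7 genes above also passed at 0.05. Counts of such members in a list stand beside 3.23% of all tested genes in heart and 3.1% in aorta. Counts with 1 sign on all 4 arrays stand beside 11.5% positive and 10.9% negative.

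**Figure D1:**
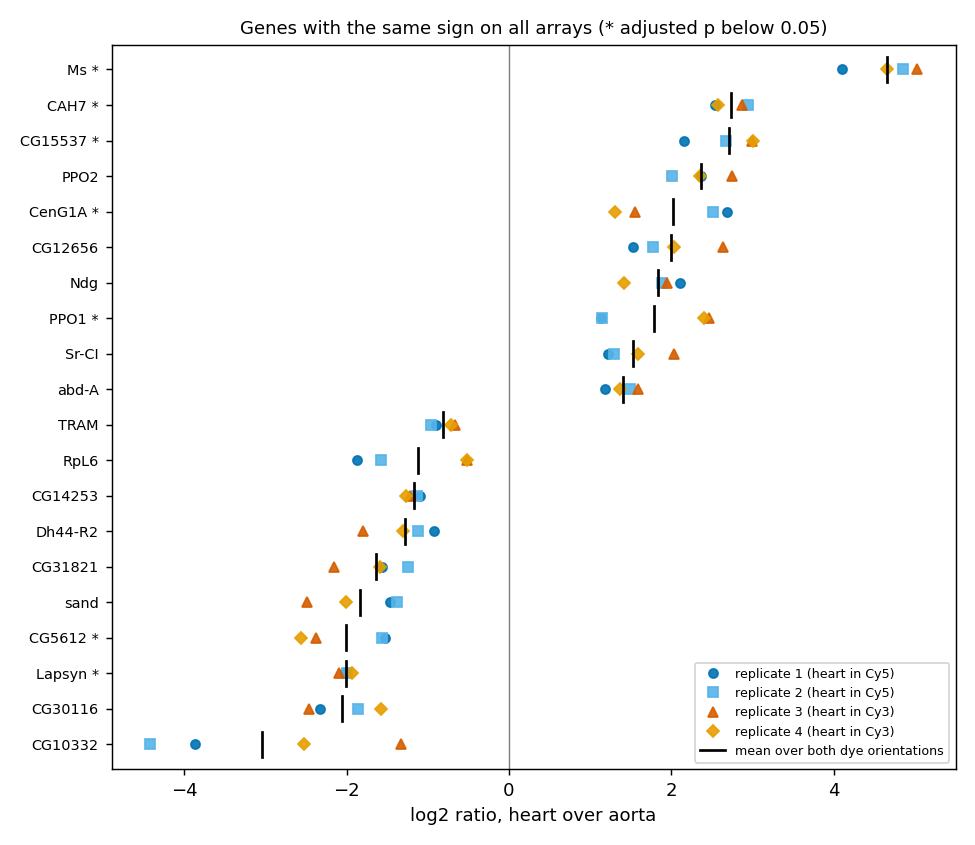
Log2 ratios of heart over aorta (x axis) for the 7 genes past the test, marked with an asterisk, and 13 genes ranked next that kept 1 sign on all arrays and passed in the fit of all 8 arrays. Each symbol is 1 array and the bar is the fitted mean; Ms stands apart at 4.66, while CenG1A, PPO1 and CG10332 differ in size between the dye orientations.

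The next genes were chosen by p among those with 1 sign on all 4 arrays that passed in the fit of 8 arrays. In heart these were PPO2, Ndg, abd-A, CG12656 and Sr-CI. PPO2, the other crystal cell prophenoloxidase, was among the brightest of them, at 485 to 1054 RFU in heart and 72.05 to 144 RFU in aorta. Its log2 ratios were 2.37, 2.02, 2.75 and 2.35 (2.37 ± 0.12, SE, n = 4, limma adjusted p = 0.0553). Sr-CI, a scavenger receptor of blood cells, had 1.22, 1.29, 2.03 and 1.59. For abd-A the fitted difference was 2.66-fold (1.41 ± 0.10, SE, n = 4, limma adjusted p = 0.087), so the Hox gene sat inside a dense band of adjusted p-values just under 0.1 rather than apart from it.

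The gene wun2 encodes a lipid phosphate phosphatase of the cell surface that is known for repelling germ cells. Its log2 ratios were 3.40, 2.32, 2.76 and 3.29, or 7.69-fold (2.94 ± 0.23, SE, n = 4, limma adjusted p = 0.09), from heart signals of 60.9 to 153 RFU and aorta signals of 4.79 to 9.97 RFU. Its relatives wun and laza had fitted values of 0.09 each, with adjusted p of 0.557 and 0.745. Agps, a peroxisomal enzyme of ether lipid synthesis, was 4.2-fold higher in heart (2.07 ± 0.25, SE, n = 4, limma adjusted p = 0.0959). Its log2 ratios were 2.53, 2.34 and 2.35 in replicates 1, 2 and 4 and 1.06 in replicate 3. Gnpat, which acts in the same pathway, had 0.27 (adjusted p = 0.17), and Agps was the 1 member past 0.1 of 16 tested peroxisome genes.

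Next in aorta, by the same choice among genes with 1 sign on all arrays, came CG14253, sand, RpL6, CG10332, TRAM, CG31821, Dh44-R2 and CG30116. The gene sand encodes a potassium leak channel. Its log2 ratios of -1.47, -1.37, -2.49 and -2.0 came from 54.1 to 127 RFU in aorta and 23.4 to 31.6 RFU in heart (-1.84 ± 0.11, SE, n = 4, limma adjusted p = 0.087). Dh44-R2, a receptor of the diuretic hormone DH44, had -0.92, -1.12, -1.79 and -1.30 (-1.28 ± 0.12, SE, n = 4, limma adjusted p = 0.09). The aorta-side sign of both membrane proteins on every array was part of that choice. TRAM, a helper of protein entry into the endoplasmic reticulum, showed a smaller and even difference of -0.90, -0.96, -0.67 and -0.71, while RpL6, a ribosomal protein, had -1.88 and -1.58 with heart in Cy5 and -0.52 and -0.51 with heart in Cy3.

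Genes known only by a CG or CR number made up 2529 of the tested genes. Of these, 260 were positive and 213 negative on all 4 arrays, beside 11.5% and 10.9% of all tested genes. Past 0.1 were 64 in heart and 61 in aorta, beside 3.23% and 3.1% of all tested genes. Each of these shares was lower among the numbered genes than among all tested genes. Apart from CG15537 and CG5612, no gene of this kind passed at 0.05.

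On the heart side, CR30029, a gene listed as non-coding by its CR number, was bright and uneven, at 67.9, 229, 313 and 532 RFU in heart and 14.6, 89.7, 28.6 and 38.5 RFU in aorta. Its log2 ratios were 1.67, 0.98, 3.18 and 3.22 (2.26 ± 0.14, SE, n = 4, limma adjusted p = 0.087). CG12656 followed at 1.53, 1.77, 2.64 and 2.04, a 3.99-fold difference, and the reference used here gives it no current annotation. Neither gene has a function in the array's annotation, and both were larger where heart was in Cy3.

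CG16700 is listed as an amino acid transporter, and its log2 ratios were 1.99, 2.33, 1.5 and 0.82 (1.66 ± 0.16, SE, n = 4, limma adjusted p = 0.0936). CG31637, listed as a sulfotransferase, had 1.51, 1.32, 1.11 and 0.76. CG30148, listed as a glucosidase with a defense role, had 0.85, 1.26, 1.20 and 1.17 and heart signals of 88.2 to 133 RFU. CG1275, listed as an oxidoreductase of electron transport, differed by only 1.63-fold but evenly, at 0.82, 0.75, 0.53 and 0.71. The heart-side sign of these 4 annotated genes on every array was part of how they were chosen. The last of them was above 95 RFU in heart and under 86 RFU in aorta on every array.

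Another 3 heart genes without a listed function varied more with the dye. CG13868 had log2 ratios of 1.71, 1.60, 0.92 and 0.59, and CG12868 had 0.47, 0.46, 1.21 and 1.38, with the larger values in opposite orientations. CG11658 had 1.52 and 1.32 with heart in Cy5 but 0.11 and 0.19 with heart in Cy3, so its difference rested mostly on replicates 1 and 2.

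On the aorta side, CG15550 and CG10332 were bright in aorta of replicates 1 and 2, and CG15550 was near background in heart. CG15550 read 58.3, 61.0, 5.76 and 15 RFU in aorta and 1.32 to 1.86 RFU in heart, for log2 ratios of -4.62, -4.02, -1.18 and -2.44 (-3.06 ± 0.26, SE, n = 4, limma adjusted p = 0.09). CG10332 read 288, 378, 16.1 and 60.0 RFU in aorta and 6.0 to 24.3 RFU in heart, for -3.87, -4.42, -1.33 and -2.53 (-3.04 ± 0.25, SE, n = 4, limma adjusted p = 0.09). Neither has a listed function, and the file pairs the oligonucleotide of CG10332 with no transcript of its annotation release. Both were many times brighter in aorta of replicates 1 and 2 than of replicates 3 and 4, with heart lower on all 4 arrays.

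CG30116, listed as an activator of apoptotic proteases, was more even, at -2.33, -1.86, -2.47 and -1.58 (-2.06 ± 0.20, SE, n = 4, limma adjusted p = 0.0945). CG31821, listed as a serine carboxypeptidase, had -1.56, -1.25, -2.15 and -1.58. CG14253 had the narrowest range of the numbered genes, -1.09, -1.13, -1.22 and -1.26 (-1.18 ± 0.07, SE, n = 4, limma adjusted p = 0.0813). For these 3 genes the dye made little difference to the size.

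These 4 numbered genes were carried by replicates 1 and 2. CG14422 had log2 ratios of -1.94 and -1.68 there but -0.09 and -0.05 in replicates 3 and 4, and CG14423 had -2.21 and -2.07 against -0.04 and -0.47. Both were above detection on 1 of 4 arrays in heart. CG30088, listed as a serine protease, gave -2.18, -2.13, -0.18 and -0.49, and CG1648 gave -1.37, -1.36, -0.31 and -0.37. Their aorta signal was well above that of heart only where aorta was in Cy3.

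**Figure D2:**
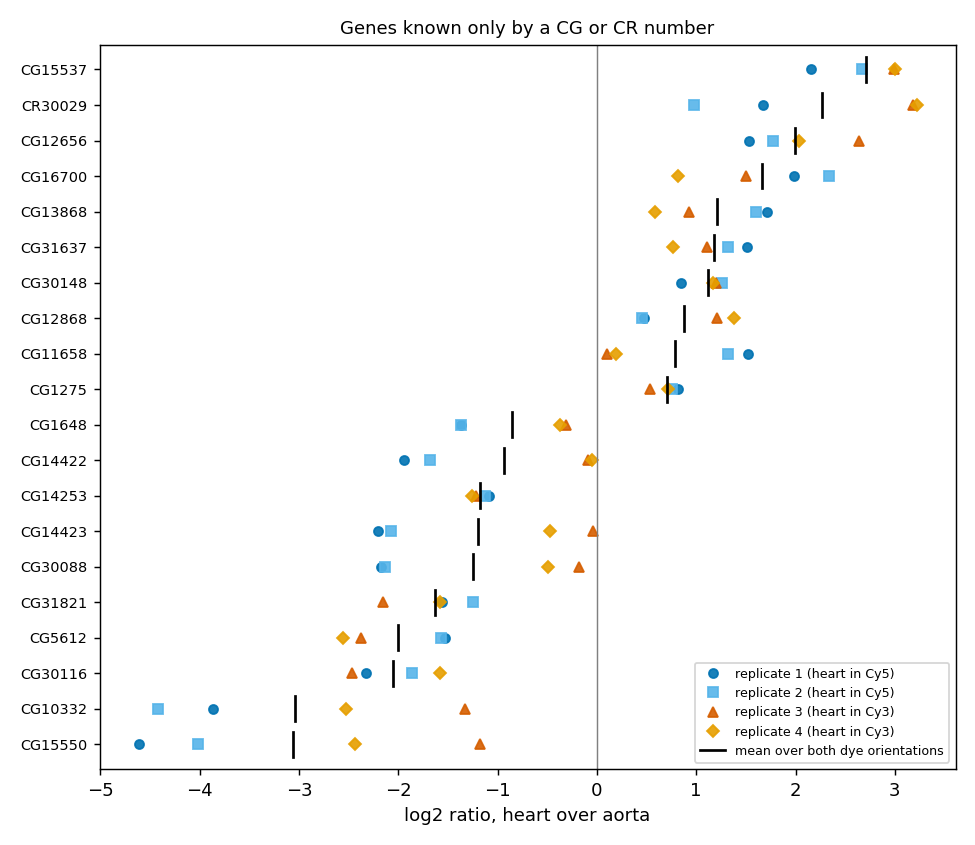
Log2 ratios of heart over aorta (x axis) for the 10 genes of each side known only by a CG or CR number, taken by smallest p among those with 1 sign on all 4 arrays. Each symbol is 1 array and the bar is the fitted mean; CG14253 and CG1275 are tight, whereas CG14422, CG14423, CG30088, CG1648 and CG11658 lie closer to 0 in replicates 3 and 4 than in replicates 1 and 2.

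Blood cell genes had a higher share past 0.1 in heart than all tested genes. Of 21 markers of hemocytes and the lymph gland on the array, 15 were tested, 9 were positive on all 4 arrays and none negative on all 4. PPO1 passed at 0.05, and 6 members were past 0.1 in heart (40.0%, beside 3.23% of tested genes). The median log2 ratio was 0.65, with 0.59, 0.83, 1.01 and 0.48 on replicates 1 to 4. Summed over the 15 members, heart held 798, 1191, 1537 and 1403 RFU and aorta 902, 893, 319 and 398 RFU, so the sum of replicate 1 was higher in aorta.

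Hml, the hemolectin of plasmatocytes, had log2 ratios of 1.01, 1.00, 1.52 and 0.84 (1.09 ± 0.14, SE, n = 4, limma adjusted p = 0.0959), with heart signals of 15.9 to 36.7 RFU and aorta signals of 5.12 to 11.9 RFU. Pxn, the peroxidasin that hemocytes lay down in matrix, had 1.85, 2.02, 2.04 and 1.43. The fitted value was negative for 3 of the 15 genes, among them Ance, a peptidase, at -3.77, -3.36, 0.90 and -0.92 (limma adjusted p = 0.108). Not above detection were drpr, gcm, lz, NimC4, nub and peb, among them lz, which marks crystal cells, although both prophenoloxidases of those cells were bright. The share of the heart difference that blood cells carry was not tested.

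Matrix genes lay on the same side as the blood cell list, and Pxn and Col4a1 are in both lists. Of 19 tested genes of basement membrane and matrix, 8 were positive on all 4 arrays, 7 were past 0.1 in heart (36.8%) and none in aorta, with a median of 0.44 (0.38, 0.61, 0.68 and 0.25 by replicate). Ndg, nidogen, which links laminin to collagen IV, had 2.10, 1.88, 1.95 and 1.42 (1.84 ± 0.12, SE, n = 4, limma adjusted p = 0.087). Ppn, papilin, had 1.06, 1.51, 1.81 and 1.27. The gene loh, named for the loss of heart integrity in its mutants, had 0.93, 0.86, 0.69 and 0.81. All 3 had a positive ratio on every array.

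Septate junction genes leaned to the heart, and other adhesion lists had smaller medians. Of 20 septate junction genes, 16 were positive (median 0.21) and 2 were past 0.1 in heart (10.0%, beside 3.23% of tested genes). These were vari at 1.45, 1.13, 2.48 and 1.11 and nrv2 at 1.25, 0.94 and 1.48 on the 3 arrays that measured it. Of 13 integrin adhesion genes, 7 were positive and 6 negative (median 0.01), and the 1 past 0.1 was rhea, talin, with 1.41, 1.27, 0.97 and 0.32. Tetraspanins were positive in 16 of 24 genes with a median of 0.04. Tsp42Eg at 0.44, 0.68, 1.17 and 0.70 and Tsp74F were past 0.1 in heart (8.33%). The gene lbm, late bloomer, was past 0.1 in aorta at -0.36, -0.40, -0.61 and -0.46 (4.17%, beside 3.1% of tested genes). Of the 4 tested innexins of gap junctions, 3 were positive (median 0.09) and none was past 0.1.

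Guidance and synaptic adhesion genes were split. Fas2, a homophilic adhesion protein, was higher in heart at 1.08, 1.16, 0.69 and 0.48 (0.85 ± 0.08, SE, n = 4, limma adjusted p = 0.09). NetA, a netrin, was higher in aorta at -1.04, -0.65, -1.13 and -1.32 (-1.03 ± 0.10, SE, n = 4, limma adjusted p = 0.0945), as was Lapsyn above. With 1 of 19 genes past 0.1 in heart and 2 in aorta, the list had no common side.

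Cytoskeletal lists had 1 member each past 0.1, in heart. Among 22 non-muscle actomyosin and spectrin genes it was Arpc3B of the Arp2/3 complex at 0.49 (4.55%, beside 3.23% of tested genes). Among 8 tubulins it was betaTub97EF at 0.84, 0.94, 0.57 and 1.15 (12.5%). The tubulin median was -0.11 and turned to 0.27 under median centring, 0.07 in the authors' deposited table and 0.08 in replicates 1 and 3 alone.

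Most tested channels and hormone receptors were positive, though more of them were past 0.1 in aorta than in heart. Of 7 tested potassium channels, 5 were positive (median 0.32). Past 0.1 were sand and SK in aorta (28.6%, beside 3.1% of tested genes) and Shaw in heart (14.3%, beside 3.23%). Shaw, a voltage-gated channel, had even log2 ratios of 0.84, 0.80, 0.69 and 0.76 (0.77 ± 0.07, SE, n = 4, limma adjusted p = 0.09). Of 9 receptors of neuropeptides and amines, 6 were positive (median 0.03). Dh44-R2 and the pyrokinin receptor PK2-R2, the latter at -0.70, -0.39, -0.63 and -0.58, were past 0.1 in aorta (22.2%) and none in heart. Both bind peptides other than myosuppressin, whose own receptors MsR1 and MsR2 were not above detection.

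Calcium and sodium handling leaned to the heart, with 14 of 19 genes positive (median 0.21) and 3 past 0.1 in heart (15.8%, beside 3.23% of tested genes). Stim, the calcium sensor of the endoplasmic reticulum, had 0.46, 0.60, 0.59 and 0.35. CanA1, a catalytic subunit of calcineurin, had 0.53, 0.88, 1.48 and 0.77, and nrv2, given above, is the beta subunit of a sodium pump.

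Contractile genes had a median of 0.33 over 30 tested members, with medians of -0.01, 0.21, 0.67 and 0.04 by replicate, so the shift was largest in replicate 3. Of these, 23 were positive and 6 were positive on all 4 arrays, and 2 were past 0.1 in heart (6.67%). wupA, troponin I, had 0.33, 0.66, 1.03 and 0.91. Zasp66, a Z-disc protein, had 0.42, 0.81, 0.79 and 0.84, with 1 of its 3 other detected oligonucleotides on the opposite side. Mhc, the myosin heavy chain, had 0.71, 1.05 and 1.81 in replicates 1 to 3 and -0.28 in replicate 4 (0.82 ± 0.39, SE, n = 4, limma adjusted p = 0.347). Mhc signals reached 242 to 711 RFU in heart and 115 to 442 RFU in aorta, ranges that overlap, and the test did not separate the regions.

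Markers that set other muscle apart were mostly not above detection. Of 13 markers of alary and somatic muscle, 5 were tested, with ap, fln, lms, nau, org-1 and tup among the 8 others, and the medians were -0.18, 0.06, 1.22 and -0.04, and Mp20 was past 0.1 in heart at -0.11, -0.14, 1.57 and 1.33. TpnC4, a troponin C, had 3.74 in replicate 3 and between -0.18 and 0.06 elsewhere. Their part in the contractile medians was not tested. In contrast, the dystrophin and sarcoglycan complex, which anchors muscle to matrix, leaned to the aorta in 4 of 5 tested genes (median -0.29). Scgalpha had -0.46, -0.41, -0.99 and -0.83, and Dg, dystroglycan, had -0.03, -0.09, -0.84 and -0.90, and both were past 0.1.

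Genes for protein synthesis lay on the aorta side in large numbers. Of 86 cytoplasmic ribosomal proteins, 82 were negative, 32 were negative on all 4 arrays and none positive on all 4, and 22 were past 0.1 in aorta (25.6%, beside 3.1% of tested genes). Of 64 mitochondrial ribosomal proteins, 57 were negative and 14 were past 0.1 in aorta (21.9%). Among all tested genes, 50.6% were negative.

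The size of this shift moved with the dye. The cytoplasmic median of -0.44 was made of -0.57 and -0.63 where heart was in Cy5 and -0.09 and -0.33 where heart was in Cy3. The mitochondrial median of -0.31 was made of -0.74 and -0.60 against -0.01 and 0.05. Replicates 3 and 4 thus showed little of the mitochondrial shift, and the cytoplasmic median after loess kept its side on each of the 4 arrays. Summed as scanned over 84 cytoplasmic members, heart held 23953.6, 27872.5, 20633.1 and 18989 RFU in replicates 1 to 4. Aorta held 23172.4, 26768.3, 24569.1 and 22413.2 RFU, so the scanned sums of replicates 1 and 2 were higher in heart.

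Single genes followed the same course. RpS29 had -1.07, -1.09, -0.37 and -0.27 (-0.70 ± 0.07, SE, n = 4, limma adjusted p = 0.0945), and RpLP2, of the ribosomal stalk, had -1.11, -0.98, -0.39 and -0.31. RpS28b had -0.88, -0.93, -0.38 and -0.65. Of the mitochondrial set, mRpL13 kept its side throughout, at -0.80, -0.78, -0.19 and -0.40, and mRpL51 had -1.31 and -1.61 in replicates 1 and 2 but -0.02 in replicate 3.

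Other steps between gene and protein leaned the same way. Splicing factors and hnRNP proteins were negative in 30 of 34 genes (median -0.22), with 5 past 0.1 in aorta (14.7%). SC35, a serine-rich splicing factor, had -1.33, -1.84, -0.56 and -0.17, and the spliceosomal core protein SmF had -0.99, -1.42, -0.07 and -0.27. Chaperonin and chaperone genes, mostly cytosolic but with the mitochondrial Hsp60A and Hsc70-5, were negative in 18 of 21 (median -0.25). Past 0.1 in aorta were 4 (19.0%, beside 3.1% of tested genes). Among them were the chaperonin subunits CCT6 at -0.55, -0.69, -0.30 and -0.36 and CCT4 at -0.61, -0.62, -0.35 and -0.82. Genes of endoplasmic reticulum translocation, folding and secretory transport were negative in 32 of 40 (median -0.25), with 4 past 0.1 in aorta (10.0%). Pdi, protein disulfide isomerase, had -0.61, -0.79, -0.34 and -0.37, and Sec61beta of the translocation channel had -0.86, -1.39, -0.20 and -0.51. All 3 groups had more negative medians in replicates 1 and 2 than in replicate 3.

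Translation factors had 35 negative and 12 positive genes and no member past 0.1; their median of -0.13 turned to 0.14 under median centring. Of 16 aminoacyl-tRNA synthetases, 13 were negative, again with none past 0.1. DNA replication and mitosis genes were negative in 22 of 24 tested genes (median -0.18). The 1 past 0.1 was geminin, an inhibitor of replication licensing, at -1.37, -1.51, 0.07 and -0.38.

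Energy metabolism leaned to the heart, also with the dye. Of 76 genes of the respiratory chain and ATP synthase, 62 were positive (median 0.17), 6 were past 0.1 in heart (7.89%) and none in aorta. By replicate the medians were -0.45, -0.06, 0.56 and 0.74, so the list lay on the aorta side where heart was in Cy5 and on the heart side where heart was in Cy3. Only 7 of its genes were positive on all 4 arrays. COX5A, of cytochrome c oxidase, had 0.34, 0.55, 1.29 and 1.14 (0.83 ± 0.08, SE, n = 4, limma adjusted p = 0.0945). ND-51, of complex I, had 0.82, 1.54, 1.05 and 0.77, and SdhD, of complex II, had 0.35, 0.60, 0.86 and 0.94.

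Glycolysis and glycogen genes were positive in 16 of 21 (median 0.20) and those of the tricarboxylic acid cycle in 13 of 16 (median 0.23), each with a negative median in replicate 1. UGP, which makes the glucose donor for glycogen, was past 0.1 at 0.87, 1.22, 1.55 and 1.12 (1.19 ± 0.12, SE, n = 4, limma adjusted p = 0.0945). The pyruvate dehydrogenase subunit gene muc had 0.35, 0.35, 0.76 and 0.47. Ldh, lactate dehydrogenase, had 1.73, 2.08 and 2.21 in replicates 2 to 4 but -0.06 in replicate 1, and did not pass (limma adjusted p = 0.129). These enzymes of fuel use kept a heart-side mean in both pairs of replicates.

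**Figure D3:**
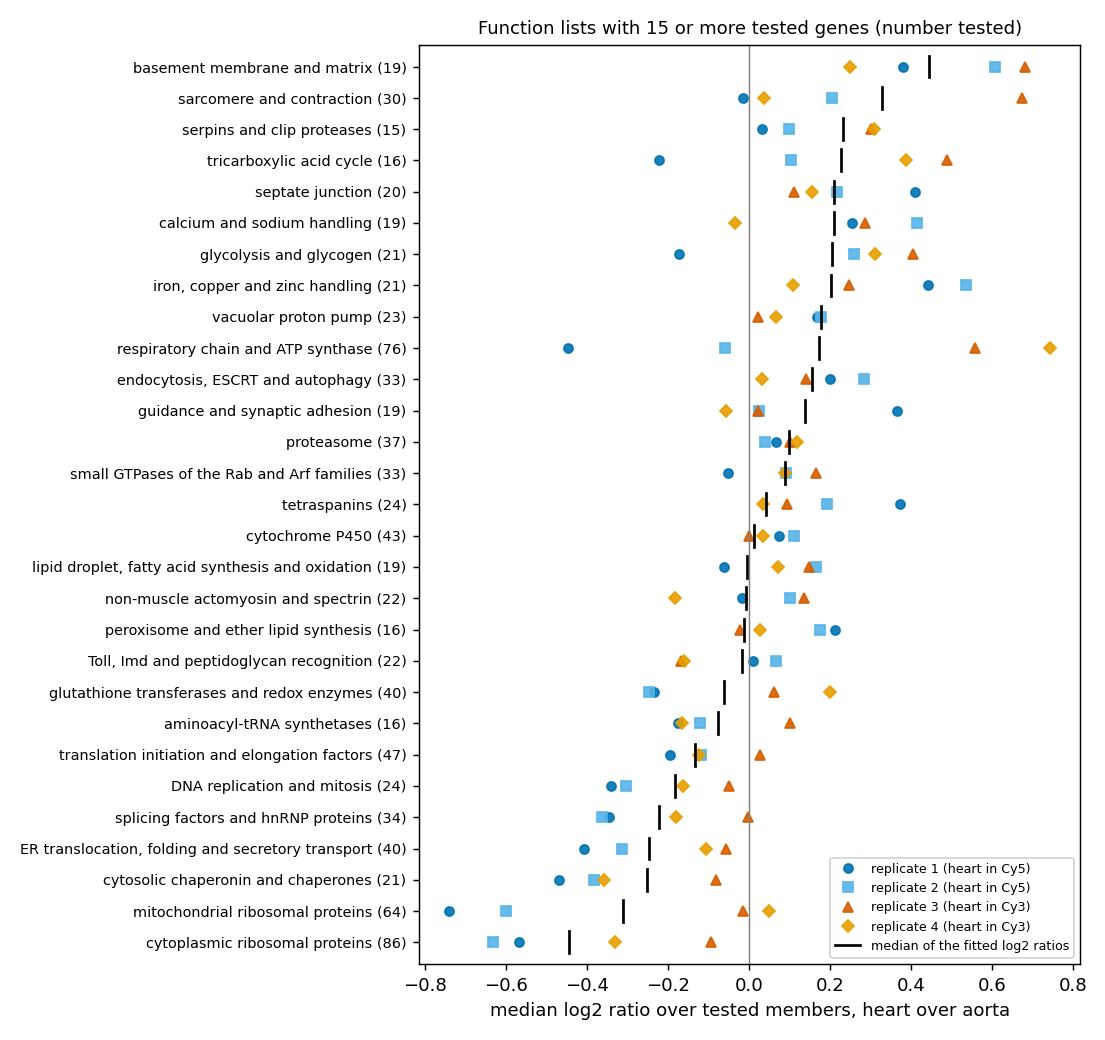
Median log2 ratio of heart over aorta (x axis) of each function list with 15 or more tested genes, with the number tested in brackets. Each symbol is the median on 1 array and the bar the median of the fitted values; ribosomal protein lists lie lowest at -0.44 and -0.31, the matrix list highest at 0.44, and the respiratory chain spans from -0.45 to 0.74 by dye orientation.

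Membrane traffic and degradation leaned to the heart by small amounts. Endocytosis, ESCRT and autophagy genes were positive in 26 of 33 (median 0.16), with Atg7 at 0.92, 0.81, 0.26 and 0.03 and Atg5 at 0.57, 1.00, 0.54 and 0.37, both parts of the autophagy conjugation system, past 0.1. The list of small GTPases of the Rab and Arf families was positive in 26 of 33 genes (median 0.09), none past 0.1. It also counts RabGGTb, a subunit of an enzyme that modifies Rab proteins. The vacuolar proton pump was positive in 17 of 23 genes (median 0.18), none past 0.1. Of 37 proteasome genes, 26 were positive and Rpn1 alone was past 0.1, at 0.68, 0.71, 0.12 and 0.12. Beside CenG1A, then, the traffic genes showed a broad but slight shift.

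Stress genes were divided. Of 9 tested small heat shock and stress proteins, 3 were past 0.1 in heart (33.3%, beside 3.23% of tested genes) and 1 in aorta (11.1%, beside 3.1%). Listericin, an antibacterial protein, had 1.34, 1.09, 0.93 and 0.72 (1.02 ± 0.09, SE, n = 4, limma adjusted p = 0.09). The crystallin-like l(2)efl had 2.26, 2.05, 1.47 and 0.33, and Hsp68 had 0.89, 0.82, 1.67 and 0.86. Hsp27, by contrast, had -0.61, -1.14, -0.64 and -1.11 (-0.88 ± 0.14, SE, n = 4, limma adjusted p = 0.0966). The chaperones thus held members on both sides that kept their sign on every array.

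Detoxification and metal genes had single members past 0.1. The cytochrome P450 list held 43 tested genes, 22 of them positive, and counts the cyclophilins Cyp1 and Cyp40, which are not P450 enzymes. Cyp4ac3 at 1.28, 1.63, 0.23 and 0.31 and Cyp9f3 at 1.03, 1.18, 0.56 and 0.05 were past 0.1 in heart. Of 40 glutathione transferase and redox genes, Sod3, an extracellular superoxide dismutase, at 0.79, 0.10, 1.32 and 1.12, and GstS1 were past 0.1 in heart, and Prx6a, a peroxiredoxin, in aorta at -0.89, -0.88, -0.12 and 0.08. Iron, copper and zinc handling was positive in 17 of 21 genes (median 0.20), with the copper importer Ctr1A past 0.1 at 0.84, 1.16, 1.14 and 0.57. None of 12 sugar and amino acid transporters was past 0.1, and of 19 genes of lipid droplets and fatty acid metabolism 2 were, Acsl and the perilipin Lsd-1 at 0.91, 0.39, 0.68 and 1.09.

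Immune genes outside the blood cell markers formed short lists with few members past 0.1. Serpins and clip proteases, which act in hemolymph cascades, were positive in 13 of 15 tested genes (median 0.23), with modSP at 0.99, 0.79, 0.40 and 0.25 and grass at 0.03, 0.29, 1.18 and 0.85 past 0.1 in heart. Both proteases act upstream of Toll. Among 22 genes of the Toll and Imd pathways and peptidoglycan recognition, PGRP-LB, an amidase that dampens Imd signalling, was past 0.1 in aorta at -1.11, -0.62, -0.40 and -0.37. None of 7 antimicrobial peptides and none of 12 odorant binding proteins above detection was past 0.1.

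Signalling pathways held 8 to 14 tested genes each. Past 0.1 were 3.23% of all tested genes in heart and 3.1% in aorta, shares that leave few or no members in lists this short. The low counts below therefore do not set these pathways apart. Of 14 Notch genes, 11 were positive and the protease kuz was past 0.1, at 1.26 and 1.28 in replicates 1 and 2 but 0.08 and 0.23 in replicates 3 and 4. Of 14 Wnt and Hedgehog genes, nkd, a feedback inhibitor of Wingless, was past 0.1 in aorta at -0.44, -0.24, -0.61 and -0.82. None was past 0.1 among 13 BMP and activin genes, 13 receptor tyrosine kinases and ligands, 12 insulin and TOR genes, 8 JAK/STAT genes and 13 ecdysone response genes. The JAK/STAT median of -0.15 turned to 0.12 under median centring.

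Transcription factors of the heart varied in direction. Of 5 tested Hox genes and cofactors, abd-A was the 1 past 0.1, with Antp at -0.10 (limma adjusted p = 0.491) and Abd-B at 0.13 (0.448). In the 13 tested cardiac factors, with how counted among them, 9 were negative and 4 positive. Their median of -0.22 turned to 0.03 under median centring and 0.05 in the authors' deposited table. tin, the NK homeobox factor that specifies the heart in the embryo, had -0.73, -0.43, -0.45 and -0.47 (-0.52 ± 0.09, SE, n = 4, limma adjusted p = 0.0966), from aorta signals of 3.01 to 3.98 RFU and heart signals of 1.46 to 2.94 RFU. The RNA-binding factor how had 0.94, 1.56, 1.05 and 0.62, but another oligonucleotide of the gene lay on the opposite side. The factor tin was thus slightly lower in heart on all 4 arrays while abd-A was clearly higher there.

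Many genes, organ markers among them, separated the pairs of replicates. In 470 of the 6895 genes measured on both, replicates 1 and 3 lay on opposite sides by at least 2-fold on each. In the marker lists of cell types and organs this held for 40 of 152 genes. Of the 470 genes, 460 were higher in heart in replicate 1 and higher in aorta in replicate 3, which is the Cy5 channel on both arrays. In replicates 2 and 4 only 25 genes were opposed to that degree. The 470 genes had median log2 ratios of 2.16 and -1.72 in replicates 1 and 3 and of -0.14 and 0.02 in replicates 2 and 4.

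Midgut genes, mostly digestive proteases, had medians of 2.77, 0.31, -2.84 and -0.76 over 28 tested of 37 markers. Summed over the 27 with 4 values, heart held 3116, 322, 127 and 97.7 RFU and aorta 111, 118, 2881 and 1792 RFU. The higher sum was in the Cy5 channel on all 4 arrays. Jon65Aiii, a serine protease, ran from 5.36 in replicate 1 and 1.28 in replicate 2 to -5.52 and -5.70 in replicates 3 and 4. Jon99Ciii gave 5.54, 1.48, -5.13 and -0.85. The trypsin gene thetaTry, past 0.1 in aorta, rested on 3 arrays with 0.16, 0.18 and -3.57, so 1 array carried its difference.

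Salivary gland genes were high in heart of replicates 1 and 2 and in aorta of replicate 3, with medians of 1.99, 1.86, -2.65 and -0.0041 over 12 genes. The glue protein gene Sgs7 had 4.49, 2.44, -3.61 and 0.86. Summed over 11 genes, heart held 2045, 3064, 171 and 489 RFU and aorta 106, 386, 1713 and 278 RFU. Testis and germ line genes were high in heart of replicate 1 and aorta of replicate 3: betaTub85D, the testis tubulin, had 4.71 and -3.77 there and -0.52 and 0.08 in replicates 2 and 4. The testis sums were 1038 RFU in heart of replicate 1 and 668 RFU in aorta of replicate 3, against 64.4 to 114 RFU in the other 6 RNAs.

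Malpighian tubule genes were high in aorta of replicate 3. The median of 7 genes was -2.0 there and 0.01 to 0.31 on the other arrays, and Uro, urate oxidase, had -5.21 against 0.21 to 1.53. Summed, that aorta held 286 RFU against 23.1 to 86.9 RFU in the other 7 RNAs. No gene of these 4 organs passed at 0.05, and their part in the other differences was not tested.

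**Figure D4:**
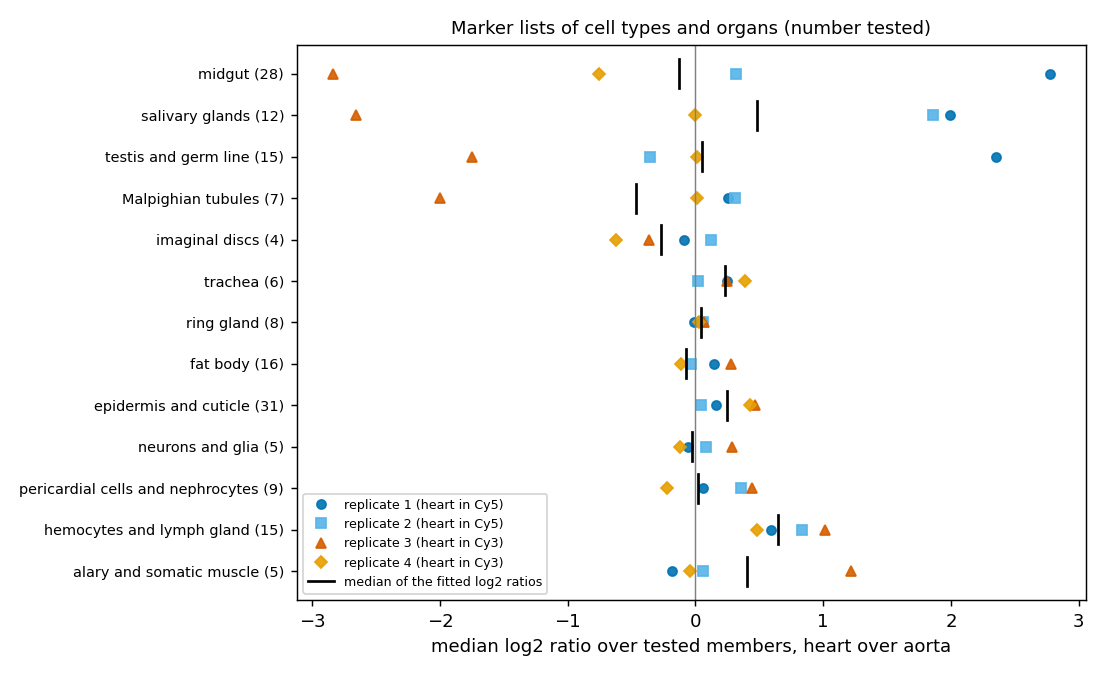
Median log2 ratio of heart over aorta (x axis) of marker lists of cell types and organs, with the number of tested genes in brackets, ordered by the gap between replicates 1 and 3. Each symbol is the median on 1 array and the bar the median of the fitted values; midgut, salivary gland and testis lists reach from 1.99 to 2.77 in replicate 1 down to between -1.75 and -2.84 in replicate 3, whereas the hemocyte median is positive on all 4 arrays.

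Epidermis and cuticle genes leaned to the heart, with 27 of 31 tested genes positive (median 0.25). On all 4 arrays 12 were positive, beside 11.5% of tested genes, and 3 were past 0.1 in heart (9.68%, beside 3.23%). Cpr67B, a cuticle protein, had 1.38, 0.56, 1.61 and 0.99, and Cpr49Af had 0.03, 0.18, 1.66 and 2.35. Lcp3, a larval cuticle protein, swung from -1.96 in replicate 2 to 5.24 in replicate 3. Summed over 30 genes, heart held 1012 to 3031 RFU and aorta 209 to 870 RFU, the same side as the blood cell and matrix genes, and their part in those was not tested.

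The remaining marker lists had smaller shifts. Fat body genes were negative in 10 of 16, with regucalcin at 0.23, 0.19, 1.70 and 1.15 and Lsd-1 past 0.1 in heart, and Fbp1 swung from 2.47 in replicate 1 to -3.33 in replicate 3. Pericardial cells and nephrocytes had 9 tested genes, none past 0.1, with medians of 0.06, 0.36, 0.44 and -0.22. Trachea (6 genes), ring gland (8), neurons and glia (5) and imaginal discs (4) had no member past 0.1. Of 17 markers of neurons and glia, 12 were not above detection, among them brp, Syt1 and repo.

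Set side by side, the pair means of the 7 genes that passed are a description only. The fit chose these genes for small spread between arrays of the same dye orientation. The means of replicates 1 with 3 and 2 with 4 were 4.57 and 4.76 for Ms, 2.71 and 2.76 for CAH7, 2.58 and 2.84 for CG15537, and 2.12 and 1.91 for CenG1A. They were 1.80 and 1.78 for PPO1, -2.06 and -1.97 for Lapsyn, and -1.95 and -2.06 for CG5612. No gene passed at 0.05 in either pair alone: limma on replicates 2 and 4 gave 569 genes with an unadjusted p below 0.05 and on replicates 1 and 3 gave 187.

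Some genes differed in replicates 2 and 4 while replicates 1 and 3 lay on opposite sides. In heart these were led by CG33225 (0.41 and 4.25 in replicates 2 and 4, 2.78 and -0.56 in replicates 1 and 3) and CG12310 (4.05 and 0.25, against 3.80 and -3.54). In aorta, mthl6, a Methuselah-like receptor, had -3.58 and -3.31 with -3.51 and 0.21 in replicates 1 and 3, and Nop60B, a pseudouridine synthase of ribosomal RNA, had -2.81 and -1.18 with -2.49 and 0.27. For mthl6, 3 of the 4 arrays lay close together on the aorta side and replicate 3 stood alone. These values describe single arrays and were not tested as a set.

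**Figure D5:**
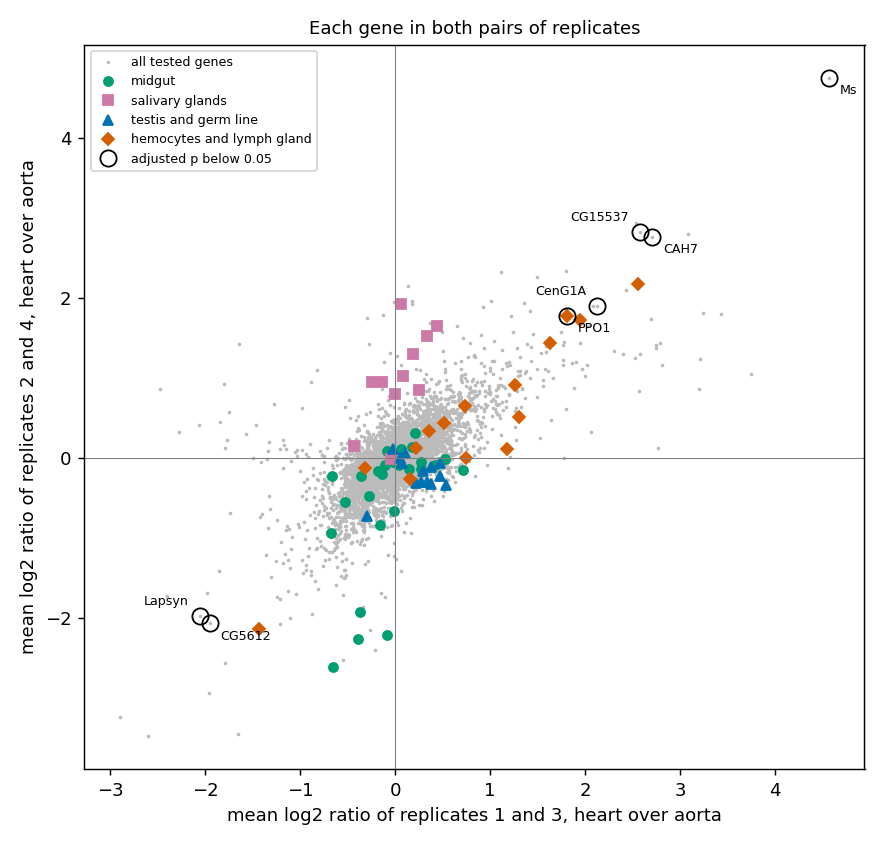
Mean log2 ratio of heart over aorta in replicates 1 and 3 (x axis) and in replicates 2 and 4 (y axis) for each tested gene, with marker lists in colour and the 7 genes past the test circled. Each pair holds both dye orientations; the circled genes lie near the diagonal, most hemocyte markers lie to the upper right, and most salivary gland genes lie well above 0 on the y axis and near 0 on the x axis.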

How the data were processed

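Spot intensity values were deposited per array as foreground and local background in RFU for Cy3 and Cy5, per the file headers, with 17 to 47 spots marked bad on an array. A deposited table also holds log2 values that the authors had processed; the submitters' processing notes name limma, without a version. Its columns run as aorta over heart: set against the scanner's log2 Cy5/Cy3, they correlated at -0.939, -0.957, 0.954 and 0.943. The table is centred near 0 (medians -0.0030 to 0.0054). It served as an alternative.

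RFU were scaled to a 16-bit range (factor 36.9), corrected by normexp with an offset of 50 (1.35 RFU), and normalised by loess within each array (span 0.3, 4 iterations) with controls and bad spots at weight 0. Repeat spots were averaged, and each gene took its brightest oligonucleotide. Of 14456 oligonucleotides, 12632 were named in the current reference by locus tag and 1137 by an older name, and 687 kept the file's name; probes were not realigned and no oligonucleotide sequence was used. The misplaced block was set to missing, a choice made after seeing the data.

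limma 3.58.1 (R 4.3.3) fitted region and dye on the 4 arrays (2 residual and 1.72 prior degrees of freedom), with p-values adjusted over 7126 genes and a threshold of 0.05. The 4 arrays limit the precision. Steps were tested on simulated data. Named genes followed a rule. The largest passing differences were filled by smallest p among genes with 1 sign that passed the fit of 8 arrays. Others were the 10 numbered genes of each side with smallest p and 1 sign, and up to 4 genes of each of 63 lists by smallest p. Also named were genes with the widest gap between replicates 1 and 3, and abd-A, tin, Ms, Hml and Mhc. The last kind lay on 1 side in replicates 2 and 4, with replicates 1 and 3 on opposite sides. The cardiac factors used to check the labels, and the members named as relatives or as not above detection, were taken from the lists. The members and lists were chosen with earlier results of these data known. Lists are described by counts and medians, without a test. Genes that share sequence with relatives, such as ribosomal, trypsin and cuticle families, may share signal.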

Additional observations from a re-analysis of the deposited data

Results flagged for a closer look

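Among 210 genes and lists examined, 11 had 1 array far from the other 3, measured by the gap to the nearest array as a share of the whole range; chance gives about 1 in 20, which is near the number found. Replicate 3 was the outlying array for Hsp68 (1.67 against 0.82 to 0.89), Agps (1.06 against 2.34 to 2.53), mthl6 (0.21 against -3.58 to -3.31), TpnC4 (3.74 against -0.18 to 0.06) and the median of the Malpighian tubule list (-2.0 against 0.01 to 0.31). Replicate 1 was the outlying array for tin (-0.73 against -0.47 to -0.43), Antp (-0.0371 against -0.129 to -0.116), Zasp66 (0.42 against 0.79 to 0.84), CG40486 (-1.20 against 1.56 to 2.13) and the median of the tubulin list (0.56 against -0.32 to -0.24). Replicate 2 stood apart for the glue gene Sgs5bis (3.45 against -0.20 to 0.42). Some genes were named for differing between replicates 1 and 3 or between the pairs, mthl6, TpnC4, CG40486 and Sgs5bis among them, so which array stood apart was partly fixed by that choice.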

How the results depend on the processing

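The counts at 0.05, 5 in heart and 2 in aorta, stayed at 5 and 2 with array weights, with the mean over oligonucleotides, and, in alternatives added after seeing the data, with the misplaced block kept as given or shifted back. Leaving out 1 replicate gave 0 to 0 in heart and 0 to 0 in aorta, and limma then had 900 to 1147 genes at an unadjusted p below 0.05. Counts were 0 and 0 in replicates 2 and 4 alone (569 unadjusted), in replicates 1 and 3 alone (187), with median centring (1428), without a detection filter (1891) and in the authors' deposited table (1663). They were 100 and 35 in the fit of 8 arrays with 1 dye term, 244 and 244 with a dye term and weights per set, 9 and 2 with no dye term, 4 and 1 without background correction, 2 and 8 with an offset of 50 RFU, 18 and 8 for genes above detection on all 4 arrays, and 230 and 221 at 0.1. The 7 genes kept their sign under all 20 alternatives, the largest adjusted p among them lying between 0.0180 and 0.999. Of the 7, limma still called 1 with the offset of 50 RFU, 4 without background correction and 4 with no dye term. Among genes given with an adjusted p, 3 that had not passed changed sign. The log2 ratio of CAH3 turned to 0.0617 with median centring and 0.0038 in the authors' deposited table and ran from -0.139 to 0.0479 with 1 replicate left out. The log2 ratio of CAH13 turned to -0.0167 in replicates 2 and 4 and ran from -0.884 to 1.31 with 1 left out. The log2 ratio of laza turned to -0.0072 in replicates 1 and 3 and ran from -0.0386 to 0.215 with 1 left out. Of 35 lists with a median of at least 0.1 in size, median centring moved 17 by more than the standard deviation of their array medians. It moved the median of all genes to 0.12, and 4 of the 35 lists changed sign. They were translation factors, tubulins, JAK/STAT genes and cardiac factors, and tubulins and cardiac factors changed also in the authors' deposited table, and tubulins to 0.08 in replicates 1 and 3. The Malpighian list turned to 0.43 in replicates 2 and 4 and 0.37 without replicate 3, and the midgut list to 0.04 without replicate 2 and 0.05 without replicate 3. The cause of these changes was not tested. Heart and aorta of a replicate share an array, so every ratio was already paired within its array and the fit used that pairing. No paired analysis was possible beyond this because no test compares the experiments whose replicate numbers match. With median spots near background, differences of dim genes such as tin are limited by signal.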
